A study of Mus musculus with 10 samples.

Results

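Transcripts of tau, of the other classical microtubule-associated proteins and of kinases that phosphorylate tau were followed in the hippocampus of amyloid-bearing mice that received irisin through the circulation. The 10 genes were taken by symbol from the deposited table of 31510 genes: Mapt, Map1a, Map1b, Map2, Map4 and Map6 for the structural proteins, and Gsk3b, Cdk5, Cdk5r1 and Fyn for the kinases and a kinase activator. All 10 were found, and all 10 passed the filter on low values that kept 17556 genes for testing.

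The study used male APP/PS1 mice, which carry mutant amyloid precursor protein and presenilin 1 transgenes driven by the mouse prion promoter and no tau transgene, so Mapt here is the mouse's own gene. At 8 months of age, 5 mice were injected in the tail vein with AAV8-GFP and 5 with AAV8-irisin-FLAG, vectors meant to express in the liver, and the micro-dissected hippocampus was collected 2 months later for messenger RNA sequencing. All 10 mice had the transgenes and a viral vector, and no wild-type or uninjected group is analysed here. Each library came from 1 mouse, and values are the authors' normalised counts, a signal per gene that was scaled between libraries. Whole reads could not be recovered from them. A value after ± is the SD of 5 mice unless marked as a standard error (SE).

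Tau binds along microtubules, mostly in axons, and lets go when kinases add phosphate to it. In Alzheimer's disease heavily phosphorylated tau leaves the microtubule and aggregates in neurons, and the hippocampus is among the regions affected early. Gsk3b and Cdk5 phosphorylate tau on serine and threonine, and Fyn on tyrosine. These modifications act on the protein, so a transcript level is not a measure of tau phosphorylation.

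None of the 10 genes passed the test between the treatments, and the 95% intervals of the 10 lay between −7.30% and 17.5% of the AAV8-GFP level. Mapt had nearly equal means, and its interval ran from −5.88% to 2.60%. Gsk3b had the largest difference of the 10, with a mean 7.56% higher in AAV8-irisin and an interval that included 0. The ratio of Map1b to Map1a within a library was higher in all 5 AAV8-irisin mice than in any AAV8-GFP mouse, by a small margin. Groups did not overlap in 1 of 45 pairs among the 10 genes (2.22%), against 0.792% of all pairs of tested genes. With 1 mouse left out, its exact permutation p adjusted over 6 ratios reached 0.333, and the ratios were chosen with earlier results known. AAV8-GFP mouse 1 had the lowest values of the 10 libraries for Map1a, Map1b, Map2, Map4 and Gsk3b, and several differences rested on it.

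Promoter sequences are shown for Map1a and Map1b, the pair whose ratio did not overlap between groups, and for Gsk3b, the gene with the largest difference. Each is the 250 bases before the RefSeq start on GRCm38.p6, written 5′ to 3′ on the gene's own strand, with capitals for a GC box (GGGCGG or CCGCCC) or a TATA motif (TATAAA or TTTATA).
Map1a (chr2:121289352-121289601, plus strand): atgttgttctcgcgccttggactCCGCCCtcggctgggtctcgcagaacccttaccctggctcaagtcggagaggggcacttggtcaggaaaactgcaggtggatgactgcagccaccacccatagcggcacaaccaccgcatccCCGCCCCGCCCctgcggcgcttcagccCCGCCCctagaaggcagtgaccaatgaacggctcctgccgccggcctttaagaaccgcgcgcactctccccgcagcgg
Map1b (chr13:99516603-99516852, minus strand): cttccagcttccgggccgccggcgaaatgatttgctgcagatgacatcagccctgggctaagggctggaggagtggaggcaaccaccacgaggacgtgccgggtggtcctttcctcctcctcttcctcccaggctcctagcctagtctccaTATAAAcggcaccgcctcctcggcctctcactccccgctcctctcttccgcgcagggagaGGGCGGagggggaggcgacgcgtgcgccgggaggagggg
Gsk3b (chr16:38088751-38089000, plus strand): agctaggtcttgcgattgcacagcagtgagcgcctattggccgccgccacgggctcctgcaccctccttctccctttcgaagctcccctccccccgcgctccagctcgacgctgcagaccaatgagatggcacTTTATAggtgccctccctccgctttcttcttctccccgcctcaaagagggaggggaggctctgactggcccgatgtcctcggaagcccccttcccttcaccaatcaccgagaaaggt
The Map1a sequence held 4 GC boxes, of which 2 share a base, and no TATA motif. The Map1b sequence held 1 GC box and 1 TATA motif, which begins 99 bases before the start. The Gsk3b sequence held no GC box and 1 TATA motif, read as TTTATA from 117 bases before the start, so on the opposite strand. Whether either motif works as a TATA box was not tested. Bases shortly after the RefSeq start were found in an annotated transcript of Map1a and of Gsk3b, but not of Map1b. The placing of the Map1b window, and of its motifs, is therefore less certain. Of 32851 RefSeq promoter windows of this length, 32.7% held a GC box and 12.4% a TATA motif on either strand. The Map1a window had 21 CpG dinucleotides, that of Map1b 19 and that of Gsk3b 15, where the median window had 6. The palindromic CRE motif TGACGTCA, found in 1.55% of windows, was in none of the 7 windows matched to 6 of the 10 genes.

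The libraries differed in how they represented long transcripts. Normalised counts summed to 35284300 to 36623000 per library, sums that the scaling makes alike and that are not depths. If the most frequent low value of a library stands for 1 read, depths were 30705500 to 41508600 reads, but only 49.0% to 71.5% of low values were then whole within 0.1 reads. The value of 1 read may therefore differ between genes of a library, and levels per kb and ratios of genes carry any such adjustment. Genes of dentate gyrus (5 of 5), CA1 (4 of 4) and CA3 or CA2 (7 of 7) all passed the filter, and no marker gene was at 0 in every library. In AAV8-GFP mouse 1 the median log2 deviation from the gene mean was 0.095 over 4133 genes whose longest annotated transcript is at most 2 kb, and −0.16 over 990 genes with one over 8 kb. AAV8-irisin mouse 3 had the same trend at 0.041 and −0.051, and in the other 8 libraries the median for genes over 8 kb lay between −0.0047 and 0.056. The largest opposite trends were in AAV8-irisin mouse 4, at −0.027 and 0.055, and AAV8-irisin mouse 5, at −0.029 and 0.056. Deviations are from the mean of all 10 libraries, so low values in some libraries raise the others, and part of these opposite trends follows from that. Of the genes over 8 kb, 68.3% had a higher mean in AAV8-irisin, against 40.8% of those up to 2 kb. Without AAV8-GFP mouse 1 these shares were 52.4% and 48.0%.

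**Figure D1:**
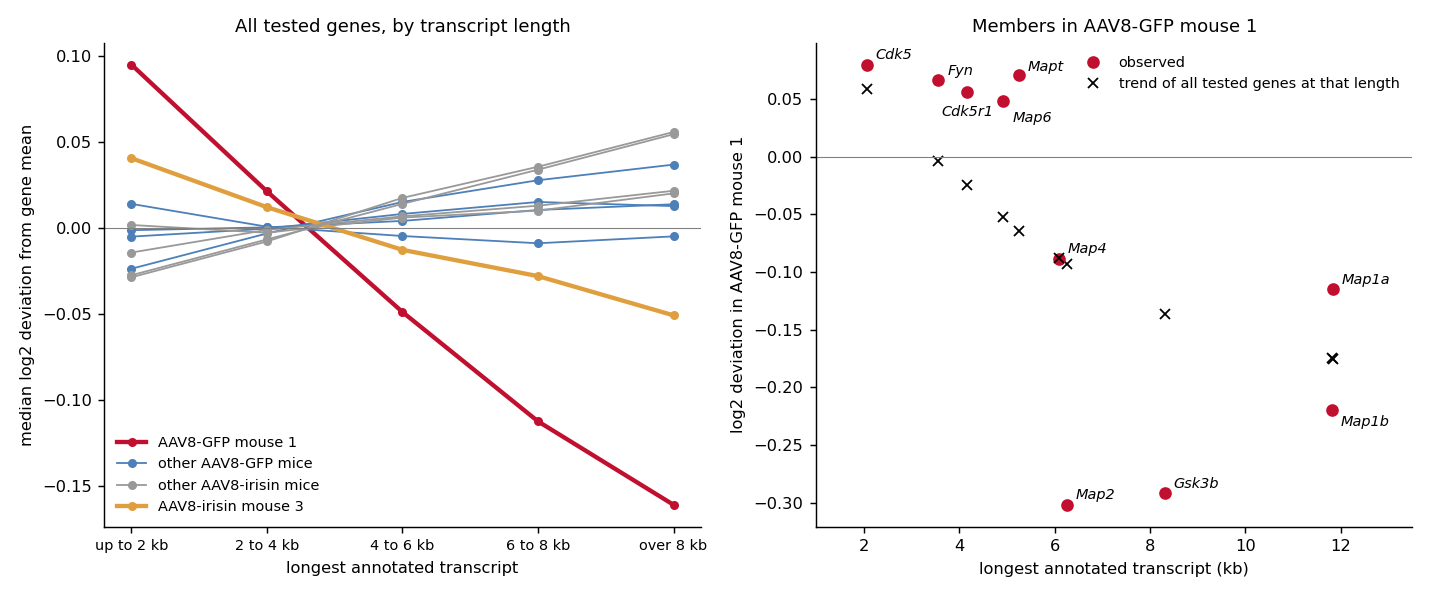
Left, the median log2 deviation from the gene mean of all tested genes in 5 classes of longest annotated transcript, 1 line per library, with AAV8-GFP mouse 1 in red falling from 0.095 to −0.16. Right, the 10 genes in AAV8-GFP mouse 1, as log2 deviation against the length of the longest transcript in kb (circles), with the trend of all tested genes at the same length (crosses). Map2 and Gsk3b lie farthest below the trend and Map1b less far below, and Mapt and Map6 lie farthest above it.

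Marker lists of other cells and tissues also varied. The 9 oligodendrocyte genes summed to 105458 to 141037 normalised counts with AAV8-GFP and 122358 to 146440 with AAV8-irisin, and all 9 had a higher mean in AAV8-irisin. The 7 pan-neuronal and excitatory genes summed to 351112 to 419995 and 370340 to 388694, with AAV8-GFP mouse 1 the lowest library and a higher mean in AAV8-irisin for 2 of the 7. AAV8-irisin also had the higher mean for 6 of 6 immature neuron genes (median log2 difference 0.066). Their sums with AAV8-GFP, 9882 to 11223 and highest in mouse 1, spanned every AAV8-irisin sum. For choroid plexus the mean was higher in AAV8-irisin for 5 of 5 tested genes. Sums were 738 to 992 with AAV8-GFP (median 913) and 921 to 2645 with AAV8-irisin (median 965). The mean was higher in AAV8-irisin for 0 of 6 microglia genes (median −0.083), 1 of 6 astrocyte genes (median −0.046) and 0 of 5 blood genes (median −0.65), the last with sums of 1586 to 4502 and 1669 to 3211. The part of these lists in the values of the 10 genes was not tested. In whole tissue, fewer cells of a type and less RNA per cell cannot be told apart.

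The levels of the 10 genes were compared with each other per kb of longest annotated transcript, over all 10 libraries. Map2 was highest, with 5499 to 7531 normalised counts per kb, followed by Map1a with 4827 to 5492 and Map1b with 4057 to 4998. Map4 had 3606 to 4020 per kb and Mapt 3407 to 3688. The ranges of Map1a and Map1b overlapped, but Map1a was the higher of the pair in all 10 libraries. Those of Map4 and Mapt overlapped too, with Map4 higher in 9 of 10. Cdk5r1, at 2136 to 2356 per kb, stood above its own kinase Cdk5 at 1264 to 1453, and Fyn, at 1309 to 1505, overlapped with Cdk5, which was the higher in 7 of 10. Gsk3b and Map6 were lowest, at 788 to 1062 and 778 to 940 per kb, with Gsk3b higher in 9 of 10. The order depends on the length used. Per kb of all annotated exons Map1a led, at 4691 to 5338, and Map2 stood behind Map1b at 2092 to 2865. This is because the 24 annotated Map2 transcripts cover 16.4 kb of exon and the longest of them 6.26 kb. By that length Map4, at 1450 to 1617, lay below Mapt at 2376 to 2572 and Cdk5r1 at 2136 to 2356, without overlap.

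The group comparison asks whether raised circulating irisin changed these transcripts in the amyloid-bearing hippocampus. In a limma fit over all 17556 genes on log2(normalised count + 1), 0 genes passed an adjusted p under 0.05 in either direction (0% of those tested), and 0 of the 10 genes did. Of all genes, 788 (4.49%) had an unadjusted p under 0.05, and none of the 10 did, where the smallest was 0.0996. Adjusted p-values of the 10 ran from 0.942 to 0.987. The value 0.942 is also the smallest of all genes tested. Genes with unlike unadjusted limma p-values share it, such as Ttbk2 (0.00746), Csnk1d (0.186) and Map2 (0.312), so it does not rank them. A higher mean in AAV8-irisin was found in 8 of the 10, against 50.5% of all genes tested, and in 5 of the 10 without AAV8-GFP mouse 1. The median log2 difference of the 10 was 0.023, and that of all genes tested 0.00099. The median within-group SD of the 10 on the log2 scale was 0.064, against 0.12 for all genes tested, which were not matched to the 10 for level.

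**Figure D2:**
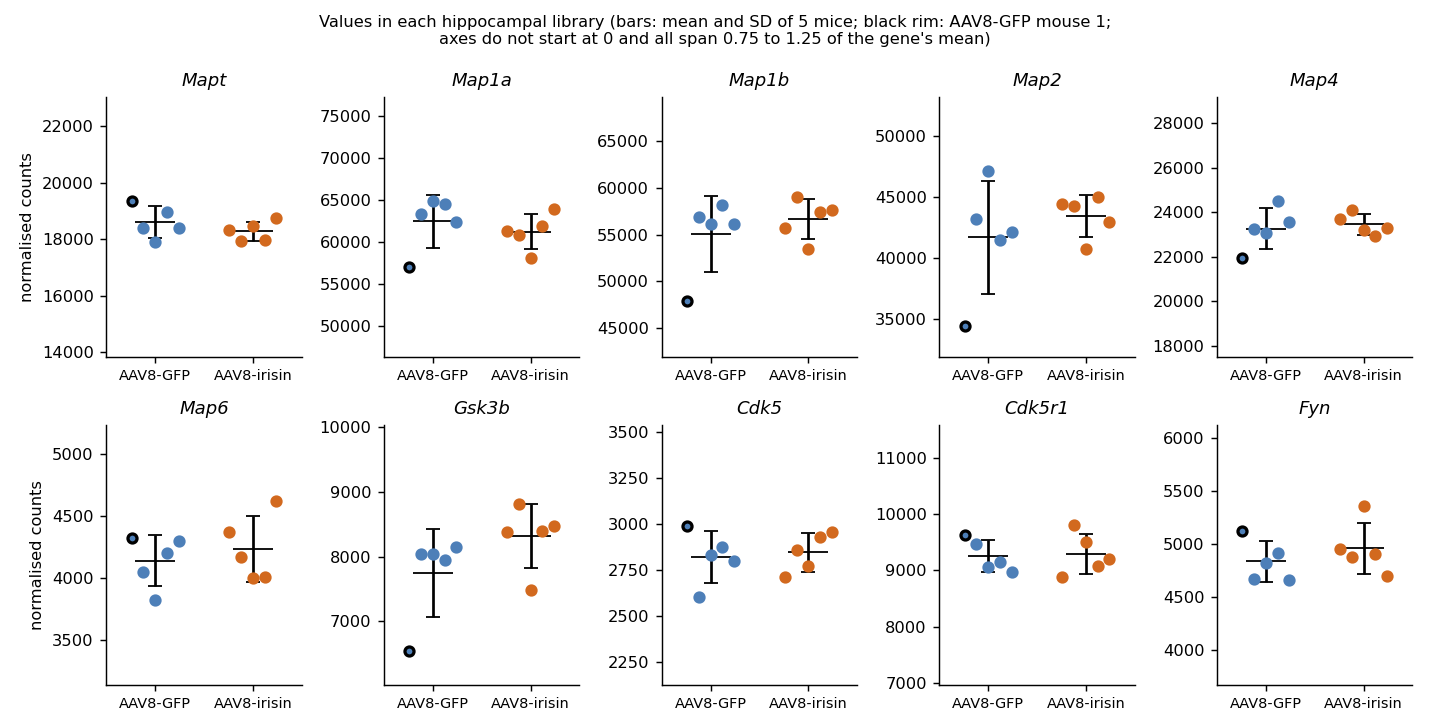
Normalised counts of the 10 genes, 1 point per mouse, with the mean and SD of 5 mice; axes do not start at 0, and each spans the same fold range. AAV8-GFP mouse 1 (black rim) is the lowest point for Map1a, Map1b, Map2, Map4 and Gsk3b and the highest for Mapt and Cdk5.

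Mapt encodes tau (ENSMUSG00000018411.17, mm10 with GENCODE M21 as for the genes below, chromosome 11, 104231390 to 104332090, plus strand, with 12 annotated transcripts). It had 19372, 18411, 17896, 18980 and 18388 normalised counts in AAV8-GFP mice 1 to 5, and 18341, 17925, 18452, 17960 and 18735 in AAV8-irisin mice 1 to 5. The groups overlapped fully, and every AAV8-irisin value lay inside the range of AAV8-GFP. Means were 18609 ± 574 and 18283 ± 342 (SD, n = 5 each), a log2 difference of −0.025 ± 0.029 (SE, adjusted p = 0.949 by limma). Only 2.82% of tested genes had a smaller within-group SD than Mapt. That rank is over genes of all levels, and genes as abundant as Mapt were not compared apart. The highest library was 1.08 times the lowest. No single mouse left out turned the sign, and the difference stayed between −0.039 and −0.011. In AAV8-GFP mouse 1 Mapt deviated by 0.071, where its length trend was −0.064. With the length trend of each library subtracted the log2 difference was −0.041 (adjusted p = 0.933 by limma). Gene counts do not tell tau isoforms made by alternative splicing apart.

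Map2, which stabilises microtubules in dendrites and is related to tau in its microtubule-binding repeats, lies on chromosome 1 (66175273 to 66442583, plus strand). It had 34410, 43175, 47131, 41477 and 42120 normalised counts in AAV8-GFP mice and 44396, 44213, 40685, 44964 and 42892 in AAV8-irisin mice. AAV8-GFP held both the lowest and the highest library, and the AAV8-irisin mice lay between them. Means were 41663 ± 4611 and 43430 ± 1712, a log2 difference of 0.066 ± 0.063 (SE, 95% interval −0.070 to 0.20, adjusted p = 0.942 by limma). Without AAV8-GFP mouse 1 the log2 difference was −0.00065. In that mouse Map2 deviated from its own mean by −0.30 on the log2 scale, where genes of its transcript length deviated by −0.093. An exon of Map2 overlaps an antisense gene over 124 bases.

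Map4 is the tau relative of most non-neuronal cells and is also transcribed in neurons (chromosome 9, 109931460 to 110083955, plus strand). Its values were 21962, 23234, 23084, 24488 and 23548 in AAV8-GFP mice and 23721, 24113, 23191, 22929 and 23310 in AAV8-irisin mice. All AAV8-irisin values fell inside the AAV8-GFP range. The log2 difference was 0.012 ± 0.031 (SE, 95% interval −0.055 to 0.079, adjusted p = 0.970 by limma), and it was −0.0082 without AAV8-GFP mouse 1. The deviation of Map4 in that mouse, −0.088, equalled the trend of its transcript length, also −0.088.

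Map1a and Map1b encode large proteins that are cut into heavy and light chains. Map1b is abundant in growing axons during development, and Map1a prevails in mature dendrites. Map1a (chromosome 2, 121289600 to 121310832, plus strand) had 57074, 63378, 64938, 64591 and 62403 normalised counts in AAV8-GFP mice and 61271, 60844, 58160, 61898 and 63942 in AAV8-irisin mice. AAV8-GFP mouse 1 was the lowest library, and every AAV8-irisin value lay inside the range of AAV8-GFP. Its log2 difference was −0.028 ± 0.038 (SE, 95% interval −0.11 to 0.053, adjusted p = 0.952 by limma). Without AAV8-GFP mouse 1 it was −0.061 (unadjusted p = 0.0402, adjusted p = 0.983 by limma), and with the length trend of each library subtracted it was −0.071 (unadjusted p = 0.00869, adjusted p = 0.923 by limma). Of all genes tested, 4.87% and 5.05% had an unadjusted limma p under 0.05 in these settings. The log2 difference of Map1a was not called in either. It was smaller under other settings, at −0.0085 with quantile normalisation, −0.014 without AAV8-GFP mouse 3 and −0.010 without AAV8-irisin mouse 3. Over all its alternatives the adjusted p ran from 0.847 to 0.999. Map1a shares 272 exon bases with Ppip5k1 on the opposite strand.

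Map1b (chromosome 13, 99421446 to 99516540, minus strand) had 47906, 56863, 56168, 58184 and 56180 normalised counts in AAV8-GFP mice and 55694, 59011, 53409, 57453 and 57677 in AAV8-irisin mice. AAV8-GFP mouse 1 lay far below the other 4 AAV8-GFP mice, whose SD was 948. The log2 difference was 0.044 ± 0.048 (SE, 95% interval −0.059 to 0.15, adjusted p = 0.948 by limma), and −0.0058 without that mouse. With the length trend subtracted it was 0.0014. In AAV8-GFP mouse 1 Map1b deviated by −0.22 and its length trend was −0.17.

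The ratio of Map1b to Map1a does not depend on a scaling factor shared by all genes of a library, though a factor particular to a gene would enter it. The longest transcripts of both genes measure 11.8 kb, but all annotated exons cover 12.2 kb for Map1a and 15.8 kb for Map1b. With the length trend subtracted, AAV8-GFP mouse 1 still deviated by 0.060 for Map1a and −0.044 for Map1b, so the 2 genes did not move alike there. The ratio was 0.839, 0.897, 0.865, 0.901 and 0.900 in AAV8-GFP mice and 0.909, 0.970, 0.918, 0.928 and 0.902 in AAV8-irisin mice. All 5 AAV8-irisin mice were above all 5 AAV8-GFP mice, with a gap of only 0.901 to 0.902 between the nearest. The mean log2 ratio was higher by 0.072 in AAV8-irisin (95% interval 0.011 to 0.14, exact two-sided permutation p = 0.00794, the smallest this design can give). Adjusted over the 6 ratios compared, p was 0.0476. This was 1 of 45 pairs among the 10 genes that did not overlap between groups, or 2.22%, and 0.792% of all pairs of tested genes did not overlap. With any 1 mouse left out the difference stayed between 0.055 and 0.081, but 8 of the 10 omissions had an adjusted p over the threshold, up to 0.333 without AAV8-irisin mouse 2. The 6 ratios were chosen with earlier results of these data known.

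Map6, a protein that protects microtubules from cold and from drugs, lies on chromosome 7 (99267447 to 99337137, plus strand). It had 4327, 4049, 3826, 4203 and 4302 normalised counts in AAV8-GFP mice and 4370, 4168, 4006, 4012 and 4627 in AAV8-irisin mice. AAV8-irisin mice 1 and 5 were above all AAV8-GFP mice, and the other 3 lay inside their range. The log2 difference was 0.032 ± 0.047 (SE, 95% interval −0.069 to 0.13, adjusted p = 0.958 by limma). It was −0.00020 without AAV8-irisin mouse 5.

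Gsk3b, a serine and threonine kinase that is active at rest and inhibited by insulin and Akt signalling, lies on chromosome 16 (38089001 to 38246084, plus strand). It had 6539, 8037, 8041, 7940 and 8154 normalised counts in AAV8-GFP mice and 8385, 8818, 7486, 8392 and 8480 in AAV8-irisin mice. Of the AAV8-irisin mice, 4 of 5 were above the highest AAV8-GFP mouse, which held for 4 or 5 mice in 2.17% of all genes tested, and mouse 3 was below 4 of the 5 AAV8-GFP mice. Means were 7742 ± 677 and 8312 ± 495, a log2 difference of 0.11 ± 0.060 (SE, 95% interval −0.023 to 0.23, unadjusted p = 0.0996, adjusted p = 0.942 by limma). The difference was 0.045 without AAV8-GFP mouse 1 and 0.14 without AAV8-irisin mouse 3. Those are the libraries with low values of long transcripts, and the longest Gsk3b transcript measures 8.30 kb. Without both it was 0.083 (unadjusted p = 0.00761, adjusted p = 0.796 by limma), and with the length trend subtracted 0.073 (unadjusted p = 0.0812 by limma). Without both, 6.04% of all genes tested had an unadjusted limma p under 0.05. Leaving out both kept AAV8-irisin mice 4 and 5, which had the largest opposite length trends as measured from the mean of all 10 libraries. The deviation of Gsk3b in AAV8-GFP mouse 1 was −0.29, beyond the length trend of −0.14. The adjusted p of Gsk3b stayed between 0.796 and 0.999 over its alternatives.

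The other isoform gene, Gsk3a, whose longest transcript measures 2.26 kb, averaged 7591 ± 461 normalised counts with AAV8-GFP and 7368 ± 187 with AAV8-irisin. The ratio of Gsk3b to Gsk3a was 0.785, 1.07, 1.04, 1.11 and 1.12 in AAV8-GFP mice and 1.18, 1.17, 0.992, 1.14 and 1.17 in AAV8-irisin mice. Again 4 of 5 AAV8-irisin values exceeded every AAV8-GFP value. The log2 ratio differed by 0.15 (95% interval −0.050 to 0.37, exact permutation p = 0.198, adjusted p = 0.397 over 6 ratios), and by 0.053 without AAV8-GFP mouse 1. Gsk3a shares 820 exon bases with an antisense gene, which leaves its value uncertain.

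Cdk5, a cyclin-dependent kinase of postmitotic neurons, lies on chromosome 5 (24418241 to 24423530, minus strand). It had 2991, 2602, 2830, 2873 and 2799 normalised counts in AAV8-GFP mice and 2709, 2861, 2769, 2931 and 2955 in AAV8-irisin mice. Both extremes belonged to AAV8-GFP, and the log2 difference was 0.014 ± 0.042 (SE, 95% interval −0.077 to 0.10, adjusted p = 0.971 by limma). It was −0.015 without AAV8-GFP mouse 2, the lowest library.

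Cdk5r1 encodes p35, the activator that Cdk5 needs, which calpain can cut to a longer-lived fragment (chromosome 11, 80477023 to 80481184, plus strand). Its values were 9641, 9466, 9070, 9155 and 8968 in AAV8-GFP mice and 8891, 9807, 9500, 9084 and 9209 in AAV8-irisin mice. The groups overlapped, with AAV8-irisin mouse 1 the lowest and AAV8-irisin mouse 2 the highest library. The log2 difference was 0.0056 ± 0.034 (SE, 95% interval −0.068 to 0.079, adjusted p = 0.987 by limma), the smallest of the 10. Its sign turned without AAV8-GFP mouse 3 (−0.0018), AAV8-GFP mouse 5 (−0.0058), AAV8-irisin mouse 2 (−0.014) or AAV8-irisin mouse 3 (−0.0024), and with the length trend subtracted (−0.00051). The ratio of activator to kinase, Cdk5r1 to Cdk5, averaged 3.29 ± 0.194 with AAV8-GFP and 3.27 ± 0.161 with AAV8-irisin, and its log2 values differed by −0.0084 (95% interval −0.14 to 0.098, exact permutation p = 0.889, adjusted p = 0.889 over 6 ratios). That sign turned without AAV8-GFP mouse 2 (0.028), AAV8-irisin mouse 4 (0.011) or AAV8-irisin mouse 5 (0.0088).

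Fyn, a tyrosine kinase of the Src family that also acts in myelination, lies on chromosome 10 (39368855 to 39565381, plus strand). It had 5124, 4667, 4823, 4915 and 4663 normalised counts in AAV8-GFP mice and 4949, 4879, 5361, 4905 and 4701 in AAV8-irisin mice. AAV8-irisin mouse 3 was the highest library, and the other 4 AAV8-irisin mice lay inside the AAV8-GFP range. The log2 difference was 0.035 ± 0.040 (SE, 95% interval −0.051 to 0.12, adjusted p = 0.949 by limma), and 0.0066 without AAV8-irisin mouse 3. The oligodendrocyte genes, a cell type that also transcribes Fyn, had a median log2 difference of 0.10, and their part in the value of Fyn was not tested. The ratio of Fyn to Mapt was 0.265, 0.254, 0.270, 0.259 and 0.254 in AAV8-GFP mice and 0.270, 0.272, 0.291, 0.273 and 0.251 in AAV8-irisin mice. It was above the highest AAV8-GFP mouse in 4 of 5 AAV8-irisin mice and below the lowest in mouse 5, with a log2 difference of 0.060 (95% interval −0.028 to 0.14, exact permutation p = 0.151, adjusted p = 0.397 over 6 ratios). Without AAV8-irisin mouse 5 it was 0.088 (exact permutation p = 0.0159, adjusted p = 0.0476 over 6 ratios). That omission takes out the contrary mouse of the group, so the separation it leaves is no support for a difference. Over 15 alternatives the adjusted p ran from that value to 0.686, without both AAV8-GFP mouse 1 and AAV8-irisin mouse 3.

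**Figure D3:**
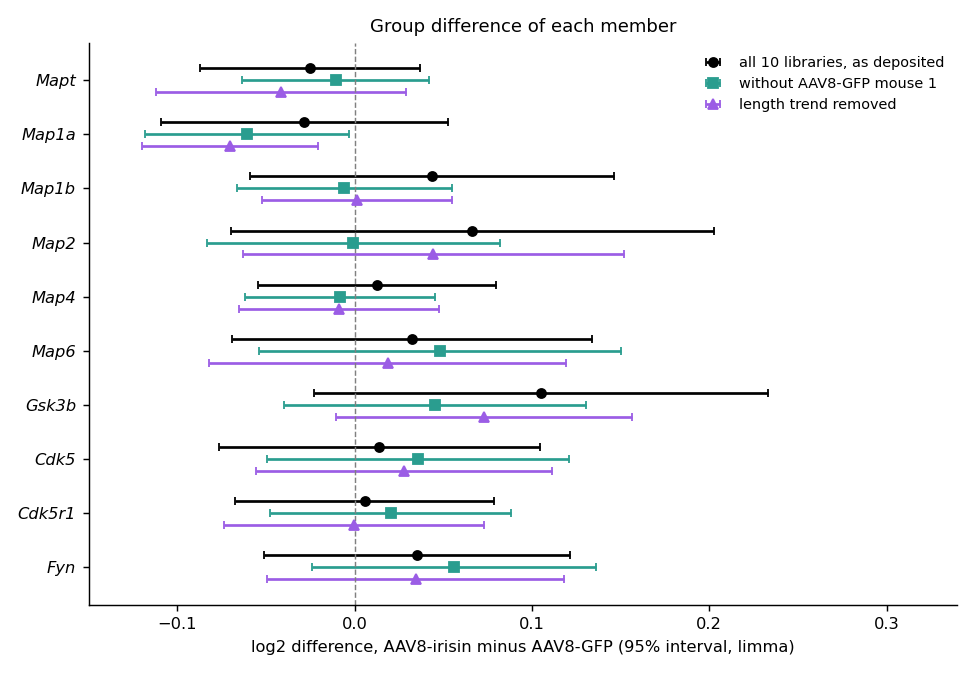
Log2 difference between AAV8-irisin and AAV8-GFP of each of the 10 genes with its 95% interval from limma, for all libraries as deposited (black), without AAV8-GFP mouse 1 (green) and with the length trend of each library subtracted (purple). All black intervals include 0; the green and purple intervals of Map1a do not, with adjusted p-values of 0.983 and 0.923.

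The remaining ratios set tau relatives against each other. Map2 to Mapt was 1.78, 2.34, 2.63, 2.19 and 2.29 in AAV8-GFP mice and 2.42, 2.47, 2.20, 2.50 and 2.29 in AAV8-irisin mice. The log2 difference was 0.092 (95% interval −0.10 to 0.32, exact permutation p = 0.460, adjusted p = 0.571 over 6 ratios), and near 0 without AAV8-GFP mouse 1. Map4 to Map2 averaged 0.563 ± 0.0557 with AAV8-GFP and 0.541 ± 0.0217 with AAV8-irisin, and its log2 values differed by −0.054 (95% interval −0.22 to 0.12, exact permutation p = 0.476, adjusted p = 0.571 over 6 ratios). Without AAV8-GFP mouse 1 that difference was −0.0075. Both ratios overlapped between groups.

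**Figure D4:**
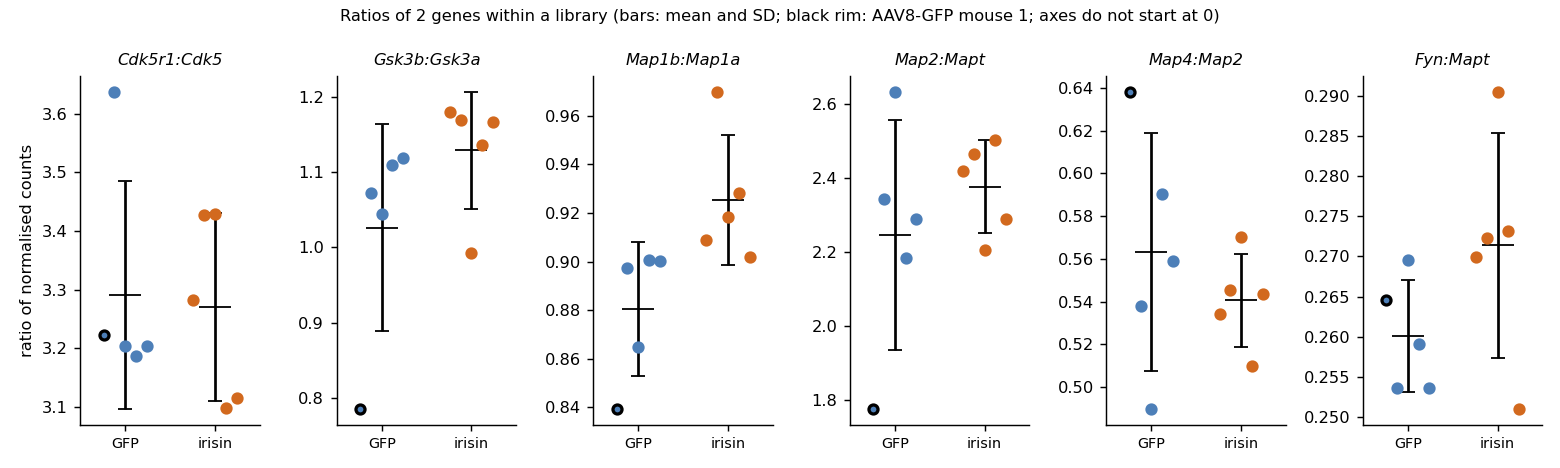
Ratios of normalised counts of 2 genes within a library, 1 point per mouse with the mean and SD of 5 mice; axes do not start at 0, and AAV8-GFP mouse 1 has a black rim. Map1b to Map1a is the ratio in which the groups do not overlap, with the nearest mice at 0.901 and 0.902.

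Among the 10 genes, the closest profiles over the 10 libraries were those of Map1a and Map1b, whose centred log2 values differed by 0.036 on average. Mapt and Map4 followed at 0.040, and Map1b and Gsk3b at 0.041. Gsk3b and Fyn were farthest apart, at 0.12. The tested genes whose centred profile was nearest to Mapt were Cmas (0.012), Atp5a1, an ATP synthase subunit (0.015), Wbp2 (0.015), Tmem38a (0.016) and Lsm14b (0.016), and the median over all tested genes was 0.099. Nearest to Fyn were Hdhd2 (0.018), Ranbp1 (0.020), Tbc1d22b (0.020), Psmb6 (0.022) and Poldip2 (0.023), with a median of 0.11. These are descriptions over 10 libraries, in which log2 Mapt varied by 0.11 from its lowest to its highest library.

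Around these genes, 144 further genes of the pathway were listed in 7 groups, and 143 were tested. None passed in either direction, and 10 of the 143 (6.99%) had an unadjusted p under 0.05, against 4.49% of all genes tested. The median log2 difference of the 143 was −0.019, with 56 higher and 87 lower means. Group medians lay between −0.034 and −0.0075. The 143 were not tested as a set.

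Of 26 genes of other tau kinases and their activators 0 passed, with 10 higher and 16 lower means and a median of −0.018. Ttbk2, a tau tubulin kinase, averaged 3508 ± 336 normalised counts with AAV8-GFP and 3986 ± 193 with AAV8-irisin, differing by 0.19 on the log2 scale (adjusted p = 0.942 by limma). In 4 of 5 AAV8-irisin mice it exceeded every AAV8-GFP value, and 4 or 5 mice did so in 2.17% of all genes tested. Ttbk2 shares 3409 exon bases with Cdan1 on its own strand, so its value is uncertain. Cdk5r2, the second activator of Cdk5, had 8939 ± 503 and 8323 ± 133, a log2 difference of −0.10 (adjusted p = 0.942 by limma). Of 22 regulators of Gsk3b and Cdk5 0 passed, with a median of −0.0076. Akt2, a kinase that inhibits Gsk3b, had 2688 ± 61.4 and 2516 ± 176, and Cables1, which binds Cdk5, had 580 ± 60.0 and 637 ± 49.8.

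Of 19 genes of tau phosphatases, their subunits and their regulators 0 passed, with 6 higher and 13 lower means and a median of −0.019. The list counts activators and inhibitors of these enzymes together, among them Set and Anp32a, both with lower means. Its counts therefore give no direction of phosphatase activity. Ptpa, which activates protein phosphatase 2A, the main tau phosphatase, averaged 6075 ± 248 normalised counts with AAV8-GFP and 5701 ± 113 with AAV8-irisin, differing by −0.091 on the log2 scale (adjusted p = 0.942 by limma). In 4 of 5 AAV8-irisin mice it was below the lowest AAV8-GFP mouse, and the share of all genes with such a count was not taken. Ppp2r5a, a regulatory subunit of the same enzyme, had 3347 ± 116 and 3176 ± 112. Of 16 tested genes of the Fyn pathway and Src family 0 passed, with a median of −0.025, and Fgr was not tested. Src had 5553 ± 141 and 5261 ± 148, a log2 difference of −0.078 (adjusted p = 0.942 by limma), and the focal adhesion kinase gene Ptk2 had 3951 ± 157 and 3752 ± 169.

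Of 24 other microtubule-associated genes 0 passed, with 12 higher and 12 lower means and a median of −0.0075. Clip1, a linker at growing microtubule ends, had 5893, 5653, 5626, 5735 and 5722 normalised counts in AAV8-GFP mice and 5280, 5405, 5535, 5507 and 5398 in AAV8-irisin mice. All 5 AAV8-irisin values were lower than all AAV8-GFP values, and the log2 difference was −0.078 ± 0.029 (SE, adjusted p = 0.942 by limma). It stayed between −0.085 and −0.067 with any 1 mouse left out. Camsap2, which caps minus ends, had 7779 ± 496 and 8175 ± 246. Of 18 severing and tubulin-modifying enzymes 0 passed (median −0.019), with log2 differences of 0.32 for Vash2, which removes the terminal tyrosine of tubulin, and 0.13 for the glutamylase Ttll7, both with an adjusted p of 0.942 by limma. The Ttll7 value was 0.071 without AAV8-GFP mouse 1.

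Of 19 genes of tau binding, turnover and spread 0 passed, with 4 higher and 15 lower means and a median of −0.034. Lrp1, an endocytic receptor that takes up tau, averaged 24344 ± 3151 normalised counts with AAV8-GFP and 21856 ± 1121 with AAV8-irisin, differing by −0.15 on the log2 scale (adjusted p = 0.942 by limma). That difference was −0.072 without AAV8-GFP mouse 1. Fkbp8, an immunophilin, had 9946 ± 418 and 9574 ± 192. Groups did not overlap in 4 of the 143 related genes, or 2.80%, against 0.803% of all genes tested. Besides Clip1 these were the kinase genes Prkaca (log2 difference −0.074) and Csnk1d (0.037) and the phosphatase subunit gene Ppp2r2a (0.068), picked out after their values were seen, each with an adjusted p of 0.942 by limma. Exons of Cables1, Camsap2, Csnk1d and Fkbp8 overlap genes on the opposite strand, and their reads may not be told apart.

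**Figure D5:**
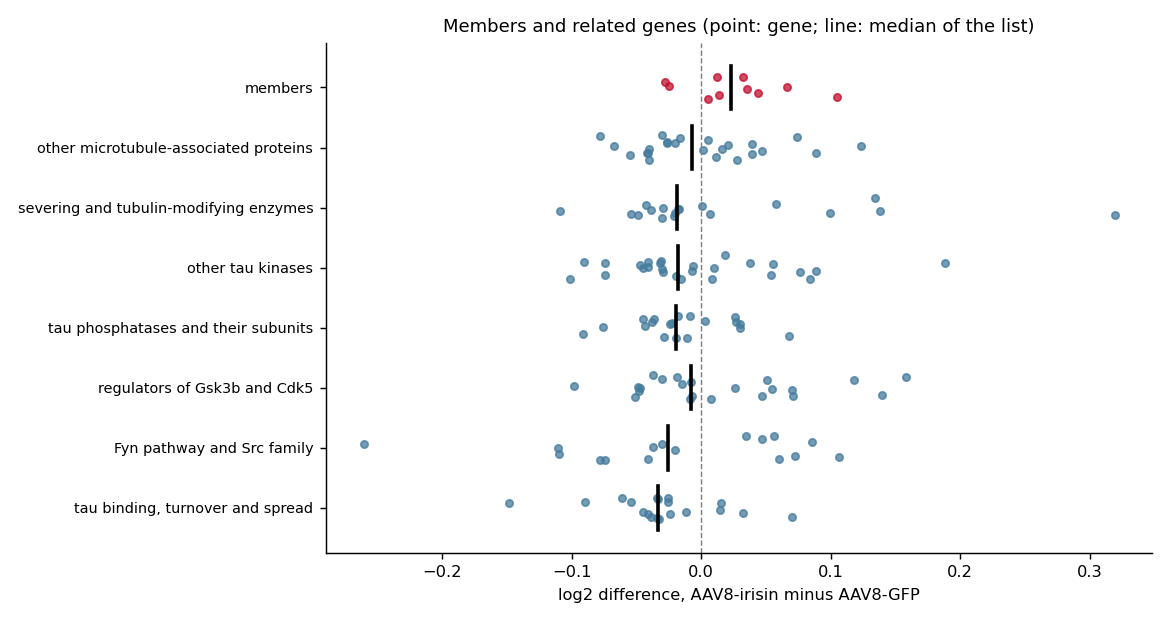
Log2 difference between AAV8-irisin and AAV8-GFP of the 10 genes (red) and of the tested genes of 7 related lists (blue), 1 point per gene, with the median of each list as a line. The median of the 10 genes is 0.023, and those of the related lists lie between −0.034 and −0.0075.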

How the data were processed

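Total RNA from frozen hippocampus was enriched for polyadenylated RNA on oligo(dT) beads and made into libraries with the NEBNext Ultra kit, per the labels' protocols. The submitters' processing notes name bcl2fastq 2.17, DESeq2 and the build mm10. The aligner, the counting tool, the annotation and the setting of strand are not given in the sources used here. Values are a normalised signal, the authors' deposited DESeq2-scaled counts, in which a shift common to every gene would not be seen. Low values of a library are not multiples of 1 step, so whole reads were not recovered and no count test was run.

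Genes reaching 10 in 5 or more libraries were tested on log2(value + 1) with limma 3.58.1 (lmFit, eBayes with trend; R 4.3.3), two-sided, with Benjamini-Hochberg adjustment over 17556 genes and a threshold of 0.05. The fit was tested on simulated data. A positive log2 difference means a higher mean in AAV8-irisin. The 6 ratios were tested by exact permutation over 252 assignments. Positions and lengths are from GENCODE M21 on mm10, matched by symbol (97.5%). Transcript length was known for 98.7% of tested genes. For the length-corrected alternative, a lowess of each library's deviation on log2 length was subtracted, an alternative chosen after the data were seen, as was leaving out AAV8-GFP mouse 1 and AAV8-irisin mouse 3 together. Promoters are RefSeq's on GRCm38.p6.

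The members, lists and ratios were chosen with earlier results of these data known. Named genes are the 10 members, the 2 of smallest p in each related list, the genes of the ratios, and the 5 nearest in profile to Mapt and to Fyn. Outside this rule, Prkaca, Csnk1d and Ppp2r2a were named for groups that do not overlap and Gm49383 for its call without the filter, after their values were seen. Each library is a mouse of its own by its title, and the spread behind every p-value is that among mice.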

Additional observations from a re-analysis of the deposited data

Results flagged for a closer look

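In groups of 5 mice, a mouse was marked when its gap to the nearest other exceeded 0.71 of the group's range. Of 32 groups tested (10 genes and 6 ratios, each in both treatments), 5 were marked, where chance marks about 1 in 20. AAV8-GFP mouse 1 was marked as lowest for Map1b (47906 normalised counts, against 56168 to 58184 in the other 4), for Gsk3b (6539, against 7940 to 8154) and for the ratio of Gsk3b to Gsk3a (0.785, against 1.04 to 1.12). AAV8-irisin mouse 3 was marked as lowest for the ratio of Gsk3b to Gsk3a (0.992, against 1.14 to 1.18). AAV8-GFP mouse 2 was marked as highest for the ratio of Cdk5r1 to Cdk5 (3.64, against 3.19 to 3.22).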

How the results depend on the processing

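None of the 10 genes passed the threshold under any of 21 alternatives (pseudocounts, filters, scalings, weights, the replicate block, each mouse left out, the 2 libraries left out together, the length trend subtracted). Over all genes 0 were called under each alternative but 1: without the filter on low values Gm49383, named after its value was seen, was called, so the count was 1. It is listed at 0 in all 5 AAV8-irisin libraries. The sign of Map4 turned with array quality weights (−0.0031), with the length trend subtracted (−0.0088) and without AAV8-GFP mouse 1 and AAV8-irisin mouse 3 (−0.0042), and that of Cdk5r1 with the length trend subtracted (−0.00051). With 1 mouse left out, log2 differences ranged from −0.061 to −0.010 for Map1a, −0.0058 to 0.065 for Map1b, −0.00065 to 0.11 for Map2, −0.0082 to 0.031 for Map4, −0.00020 to 0.052 for Map6, −0.015 to 0.036 for Cdk5, −0.014 to 0.022 for Cdk5r1, −0.026 to 0.028 for the ratio of Cdk5r1 to Cdk5, 0.055 to 0.081 for Map1b to Map1a and 0.035 to 0.088 for Fyn to Mapt. Without AAV8-GFP mouse 1 and AAV8-irisin mouse 3 the Map1b to Map1a difference was 0.057 (exact permutation p = 0.0286, the smallest for 4 against 4, adjusted p = 0.0857). Same-numbered mice of the 2 groups shared only a number: correlations of their deviations ran from −0.089 to 0.030, and none correlated best with its own number. With the number as a replicate block, 0 genes were called, and the Map1b to Map1a difference stayed 0.072 with an exact sign-flip p of 0.0625, the smallest 5 pairs allow. Count models on recovered reads could not be run. The number of mice and the spread between them limit precision, with standard errors of 0.029 to 0.063 for the 10 genes.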
